A study of Caenorhabditis elegans with 2 samples.

Results

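Small nucleolar RNA (snoRNA) genes were examined as binding sites of Y95B8A.8, also named zfr-1, in the nematode Caenorhabditis elegans. The members were all 346 nuclear genes that the Ensembl annotation of the WBcel235 genome gives the biotype snoRNA, out of 46890 annotated nuclear genes, each taken with 250 bp on both sides. A locus was called bound when the summit of a peak in the thresholded list of both replicates fell inside it. Chromatin immunoprecipitation with sequencing (ChIP-seq) was done with an anti-GFP antibody on strain RW12277, which carries allele st12277, a CRISPR insertion of TY1::EGFP::3xFLAG at the Y95B8A.8 gene. The tagged protein was therefore expressed from its own locus, and the worms were whole young adults, 63 hours of age, grown from larvae starved at L1 after bleaching. There was 1 group of 2 samples, biological replicates 1 and 2, with no untagged or treated group among them. Every tissue of the worm contributed to each value.

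Most snoRNAs guide chemical modification of ribosomal RNA in the nucleolus. C/D snoRNAs, which carry a box C near the 5′ end and a box D near the 3′ end, guide ribose methylation, and H/ACA snoRNAs, which end with the letters ACA and a short tail, guide the conversion of uridine to pseudouridine. A snoRNA gene inside an intron can be released from the spliced transcript of its host gene, many hosts being genes of ribosomal proteins, whereas a gene outside other genes needs a promoter of its own. Transfer RNA (tRNA) genes, transcribed by RNA polymerase III, hold their promoter inside the gene as box A and box B, the landing sites of transcription factor TFIIIC. Small nuclear RNA (snRNA) genes have an upstream proximal element instead. The zfr-1 gene is named after ZFR, a zinc finger RNA-binding protein of vertebrates.

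The bases just upstream of some bound snoRNA genes, though not of most, held recurring letters. The sequences below are shown because the later results refer to them, and they are not a typical sample of bound loci. Each runs from 100 bases before the annotated 5′ end to 20 bases into the gene, 120 bases in all, read 5′ to 3′ on the strand of the snoRNA gene in WBcel235. Capitals in the first set mark a box A word, GGCNNAG, and a box B word, GTTCNANNC, with N standing for any base. The first 4 of these loci were bound and the last, T24H7.6, was not.
W03C9.9 (chrII:11960798-11960917, plus strand): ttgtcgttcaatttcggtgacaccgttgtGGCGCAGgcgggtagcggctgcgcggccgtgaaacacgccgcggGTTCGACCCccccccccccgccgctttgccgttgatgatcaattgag
F55A11.10 (chrV:11782892-11783011, plus strand): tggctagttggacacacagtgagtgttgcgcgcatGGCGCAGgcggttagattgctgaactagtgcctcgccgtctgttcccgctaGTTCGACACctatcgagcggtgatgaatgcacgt
Y43F8C.22 (chrV:19643168-19643287, minus strand): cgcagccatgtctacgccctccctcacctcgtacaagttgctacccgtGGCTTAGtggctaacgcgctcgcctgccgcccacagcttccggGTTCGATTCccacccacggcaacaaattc
F32E10.10 (chrIV:7574022-7574141, plus strand): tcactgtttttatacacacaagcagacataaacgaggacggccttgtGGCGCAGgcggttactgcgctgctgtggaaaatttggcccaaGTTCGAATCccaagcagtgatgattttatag
T24H7.6 (chrII:6248617-6248736, plus strand): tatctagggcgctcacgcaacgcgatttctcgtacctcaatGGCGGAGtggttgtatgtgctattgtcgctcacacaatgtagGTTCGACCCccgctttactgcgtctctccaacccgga
In the next set, all bound, capitals mark GGAACC followed by TGTC.
Y67A10A.14 (chrIV:14327102-14327221, minus strand): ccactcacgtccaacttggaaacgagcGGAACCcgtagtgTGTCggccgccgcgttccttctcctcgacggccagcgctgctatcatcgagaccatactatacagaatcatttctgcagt
F54F11.6 (chrII:13521201-13521320, plus strand): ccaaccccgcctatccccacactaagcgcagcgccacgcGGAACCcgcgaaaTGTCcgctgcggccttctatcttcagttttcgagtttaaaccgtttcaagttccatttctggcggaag
C16D9.11 (chrV:8228950-8229069, minus strand): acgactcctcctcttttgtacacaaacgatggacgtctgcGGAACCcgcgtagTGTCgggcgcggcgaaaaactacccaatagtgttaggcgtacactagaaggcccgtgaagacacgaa
Y53F4B.47 (chrII:15025874-15025993, minus strand): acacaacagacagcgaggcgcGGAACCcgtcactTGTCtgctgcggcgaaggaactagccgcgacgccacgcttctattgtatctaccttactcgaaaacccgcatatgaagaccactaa
The last 3 held neither of these pairs: ZK994.7 had the highest signal of all snoRNA loci, WBGene00220185 had the best ranks among loci that were not bound, and Y43B11AR.7 lies in an intron of a ribosomal protein gene.
ZK994.7 (chrV:8500479-8500598, plus strand): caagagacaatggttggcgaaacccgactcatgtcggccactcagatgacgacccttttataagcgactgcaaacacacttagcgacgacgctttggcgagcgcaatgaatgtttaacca
WBGene00220185 (chrIV:14780739-14780858, plus strand): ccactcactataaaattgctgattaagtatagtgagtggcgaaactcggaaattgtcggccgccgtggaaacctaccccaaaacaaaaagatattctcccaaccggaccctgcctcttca
Y43B11AR.7 (chrIV:7083911-7084030, minus strand): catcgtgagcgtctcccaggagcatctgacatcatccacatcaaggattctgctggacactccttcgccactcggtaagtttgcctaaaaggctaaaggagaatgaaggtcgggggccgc

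Of the 346 loci, 69 were bound (19.9%, exact 95% interval 15.9 to 24.5), and these held 70 summits. With windows made in the same way, the share was 22.9% of 612 tRNA genes and 20.2% of 129 snRNA genes. It was 3.83% of 261 microRNA genes, 0.150% of 15363 piRNA genes, 3.60% of 7504 short non-coding RNA genes and 3.12% of 19973 protein-coding 5′ ends. The snoRNA share minus that of tRNA genes was -2.93 percentage points (two-sided Fisher's exact test over loci, Benjamini-Hochberg adjusted p = 0.657) and minus that of snRNA genes -0.213 points (adjusted exact p = 1.00). Neither difference passed the threshold, and the direction of both changed with the list used. In the list of replicate 2 alone, 10.7% of snoRNA loci and 5.39% of tRNA loci were bound. That difference of 5.30 points passed (adjusted exact p = 0.00828), while in the list of replicate 1 alone it was 4.55 points (adjusted exact p = 0.0624). These lists are shorter, with 667 and 733 peaks against 1694 in the list of both replicates. In the upper 50% of the latter by signal the difference was 4.95 points (adjusted exact p = 0.0676). Each adjustment covers the 2 class comparisons of 1 setting. The signal of bound loci, a number from the authors' peak calling whose scale is not stated, had a median of 97.7 at snoRNA loci, 78.1 at tRNA loci and 96.2 at snRNA loci. Loci are not replicates, and 21 of the snoRNA windows overlapped another; with overlapping windows merged, 68 of 325 loci were bound.

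A ranked peak of any strength was present in both single-replicate lists at 175 of the 346 snoRNA loci (50.6%), against 17.7% of protein-coding 5′ ends. The share was 59.3% of tRNA loci and 48.8% of snRNA loci, the 2 most similar classes. Of the 69 bound loci, 67 had a ranked peak in replicate 1, 66 in replicate 2 and 64 in both. The signal at bound loci ranged from 25.2 to 134 in replicate 1 (median 54.5) and from 19.5 to 154 in replicate 2 (median 46.5). At loci that were not bound but had a ranked peak, it ranged from 2.23 to 64.2 (median 20.1) and from 5.74 to 44.6 (median 18.1). The ranges of bound and not bound loci therefore overlapped in both replicates. Over the 175 loci the signals of the replicates had a Spearman correlation of 0.733, and it was 0.466 within the 64 bound loci and 0.347 within the 111 others; this describes loci of the same pair of libraries. The summits of the replicates lay a median of 23.0 bp apart at bound loci and 96.0 bp apart at the others. Loci were called bound from these same 2 replicates, so the differences in signal and summit distance are not independent of the call. The thresholded list of replicate 1 alone held 42 of the 69 bound loci and that of replicate 2 alone 36. Of the 69, 25 were in both of these lists and 16 in neither.

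**Figure D1:**
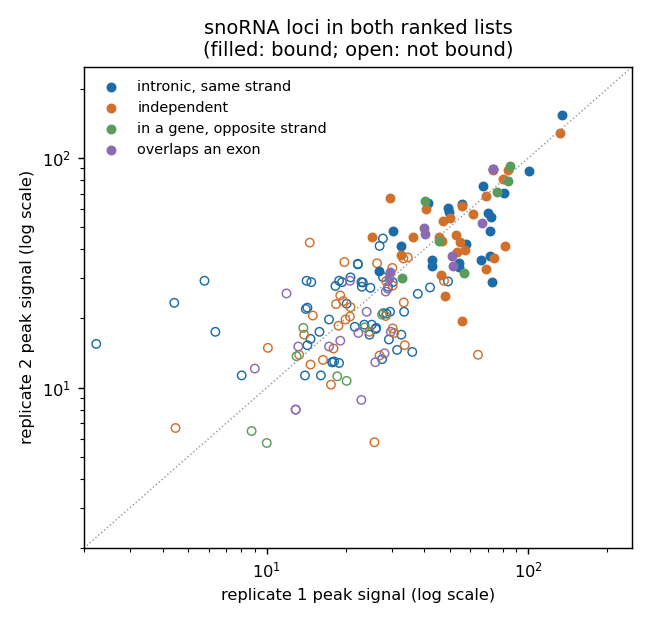
Peak signal of replicate 1 (horizontal, log scale) against replicate 2 (vertical, log scale) at the 175 snoRNA loci with a ranked peak in both replicates; each point is 1 locus, coloured by its place, filled when bound and open when not, and the dotted line marks equal values. Filled points lie towards the upper right, between 25.2 and 134 in replicate 1, and overlap the open points at their lower end.

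Most summits at snoRNA loci stood just before the gene. Measured along the strand of the nearest snoRNA gene, their median position was -35.5 bp from the 5′ end (interquartile range -56.8 to -2.25, 70 summits). At tRNA genes the median was 21.0 bp inside (interquartile range -1.0 to 46.8, 126 summits), and at snRNA genes it was 17.0 bp inside (-33.0 to 43.8, 26 summits). Of the 69 bound loci, 48 had the summit 1 to 100 bp upstream of the 5′ end, 10 over the gene and 7 downstream of it. The other 4, T27A3.9, M7.15, W06H8.17 and R166.10, had it more than 100 bp upstream. The upstream place was that of 42 of the 52 bound loci with earlier WormBase identifiers (median position -36.5 bp) and of 6 of the 17 with later ones, where 5 summits lay over the gene and the median was -2.00 bp (interquartile range -89.0 to 132). In bins of 100 bp, 47 summits fell in the last 100 bp before the gene, 3 in the 100 bp before those and 8 in the first 100 bp from the 5′ end on. At 8 bound loci a protein-coding 5′ end was no more than 250 bp from the summit, and at 0 was a tRNA or snRNA gene that close.

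**Figure D2:**
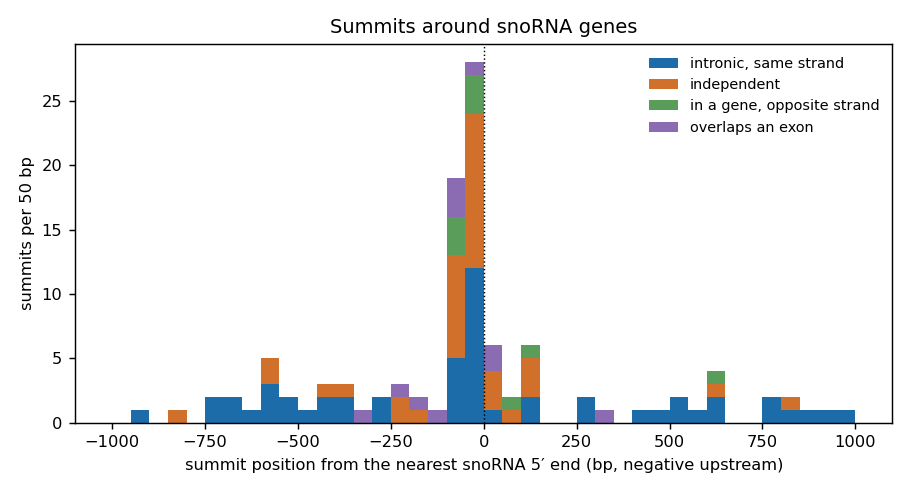
Number of summits of the list of both replicates per 50 bp (vertical) by position from the nearest snoRNA 5′ end in bp (horizontal, negative upstream, to 1000 bp on each side), stacked by the place of the gene. The bars just before the 5′ end stand highest, with 47 summits in the last 100 bp, and include intronic and independent genes.

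The snoRNA genes were divided by place. Of the 346, 142 were intronic, lying within a protein-coding gene on the same strand with no protein-coding exon touched, and 124 were independent, overlapping no protein-coding gene. Another 27 lay in a protein-coding gene on the opposite strand, and 53 overlapped an exon. Bound loci numbered 23 of the intronic (16.2%, 10.6 to 23.3) and 30 of the independent (24.2%, 17.0 to 32.7). The difference of -8.0 percentage points did not pass the test (two-sided Fisher's exact p = 0.124). On the opposite strand 8 of 27 were bound (29.6%, 13.8 to 50.2), and of the exon-overlapping loci 8 of 53 (15.1%, 6.75 to 27.6).

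Bound intronic and bound independent loci had overlapping signals. The signal in the list of both replicates ran from 57.3 to 296 at intronic loci (median 104) and from 68.3 to 266 at independent loci (median 97.5). In replicate 1 the medians were 57.8 and 53.1, and in replicate 2 they were 47.9 and 45.4. The summit lay 1 to 100 bp upstream of the snoRNA 5′ end at 18 of the 23 bound intronic loci and 20 of the 30 bound independent loci, with median positions of -24.0 and -40.0 bp. Few of the intronic summits were at the start of a protein-coding gene: at 3 of the 23 the summit had a protein-coding 5′ end no more than 250 bp away.

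**Figure D3:**
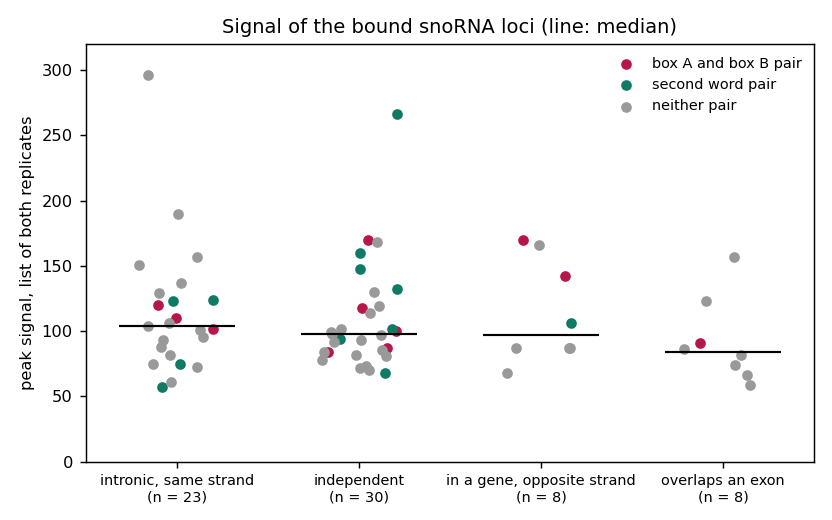
Peak signal in the list of both replicates (vertical) of each of the 69 bound snoRNA loci by the place of the gene (horizontal), with a line at the median; colour shows which word pair stands upstream. The 4 places overlap, with medians from 84.3 to 104, and the highest values are 296 (intronic) and 266 (independent).

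The comparison was also made within earlier and later annotated genes. The WormBase gene identifiers of snoRNA genes fall into an earlier and a later series with a wide gap in number between them, a division added after the data were seen. In the earlier series 52 of 139 loci were bound (37.4%, 29.4 to 46.0) and in the later 17 of 207 (8.21%, 4.86 to 12.8). Among earlier identifiers 20 of 84 intronic loci (23.8%, 15.2 to 34.3) and 21 of 32 independent loci (65.6%, 46.8 to 81.4) were bound, a difference of -41.8 points (two-sided Fisher's exact p = 5.75e-05). Among later identifiers the counts were 3 of 58 (5.17%) and 9 of 92 (9.78%), a difference of -4.61 points (exact p = 0.371). Whether the difference itself differed between the series was not tested. Of the 124 independent genes 92 carry later identifiers, against 58 of the 142 intronic genes. The evidence behind each gene model was not analysed here.

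**Figure D4:**
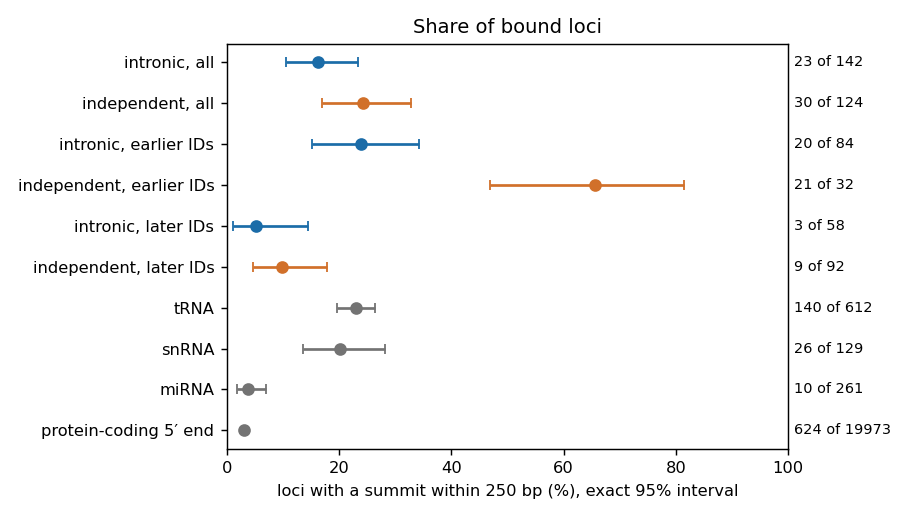
Share of loci with a summit within 250 bp (horizontal, %, from 0 to 100) for intronic and independent snoRNA genes, all and by identifier series (IDs), and for 4 other gene classes; points are shares, bars are exact 95% intervals, and counts stand at the right. Independent genes with earlier identifiers lie highest at 65.6%, and later identifiers of both kinds lie under 10%.

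The bound intronic loci were led by ZK994.7 (V, 8500579 to 8500645), in an intron of the peroxidasin gene pxn-1. Its signal was 296 with both replicates, 134 in replicate 1 and 154 in replicate 2, and its summit lay 8 bp before the 5′ end. The snoRNA gene is 67 bp long and has the letters of box C and box D at its ends, ATGA and CTGA. Y37E3.20 (I, 2085037 to 2085155), in pcyt-2.1, a gene of phospholipid synthesis, followed with 190, and with 101 and 87.5 in replicates 1 and 2, the summit lying 35 bp upstream. C51F7.3 (V, 12303708 to 12303783), in frm-7, a gene of the FERM domain family, had a signal of 157 with the summit 92 bp upstream. The same peak also counted for the neighbouring snoRNA gene C51F7.4, which overlaps a frm-7 exon and has its 5′ end 17 bp before the summit. The host frm-7 was the one gene with 2 bound snoRNA loci, and both rest on this peak. Y38F2AR.14 (IV, 2408508 to 2408635), in Y38F2AR.12, had a signal of 137, with 66.9 in replicate 1 and 75.6 in replicate 2, and its summit lay 3 bp upstream.

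Among independent loci F59C6.15 (I, 10516978 to 10517150) was the highest. Its signal was 266 with both replicates, 132 in replicate 1 and 128 in replicate 2, with the summit 48 bp upstream. W03C9.9 (II, 11960898 to 11960959) reached 170, with 83.7 and 88.4 in the replicates, and Y23H5B.10 (I, 2514168 to 2514311) reached 168, with 79.7 and 81.3. At both, as at F59C6.15, the replicates gave close values, and the summits lay 63 and 43 bp upstream. F25H2.15 (I, 10565266 to 10565443) had 160, with 73.1 and 88.8, and its summit lay 59 bp upstream. Y74C9A.6 (I, 3747 to 3909), near the left end of its chromosome, had 132, with 69.0 and 68.1. Y67A10A.14 (IV, 14326948 to 14327121) differed from these: its signal was 148 with both replicates and 59.9 in replicate 2, but no ranked peak had its summit there in replicate 1.

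The other 2 places were led by T03F7.8 (V, 11314258 to 11314332), which lies in the cuticlin-like gene cutl-18 on the opposite strand and had a signal of 170, with 85.1 and 92.3 in replicates 1 and 2. Its summit lay 61 bp upstream. Y55F3BR.9 (IV, 867056 to 867133), opposite to Y55F3BR.2, had 166, and its summit lay over the gene, 51 bp from the 5′ end. ZK484.9 (I, 6082738 to 6082805), opposite to the ABC transporter gene haf-9, had 142, with the summit 38 bp upstream. F39B2.14 (I, 14759178 to 14759412), which overlaps an exon of tmem-107, a gene of cilia, had 123, and its summit also lay 28 bp from the tmem-107 5′ end, so the peak cannot be told apart from one at that gene.

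On X, 1 of 33 snoRNA loci was bound (3.03%, 0.0767 to 15.8), namely C53B7.8 with a signal of 91.8. On the autosomes 68 of 313 were bound (21.7%, 17.3 to 26.7), from 14.8% on III to 30.9% on V. Ranked peaks in both replicates were present at 9 of the 33 X loci (27.3%) and at 166 of the 313 autosomal loci (53.0%). Of the X loci, however, 30 of 33 carry later identifiers, a series of which 8.21% was bound over all chromosomes. Among later identifiers 0 of 30 X loci and 17 of 177 autosomal loci (9.60%) were bound, and ranked peaks in both replicates were present at 8 (26.7%) and 70 (39.5%). Whether X differs from the autosomes was not tested.

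The hosts were read against lists of ribosomal protein and translation factor genes. Of the 142 intronic genes, 21 lay in 14 ribosomal protein genes and 2 of these were bound (9.52%). Y43B11AR.7, in rps-4, had a signal of 151, with 80.8 and 70.1 in replicates 1 and 2. Its summit lay 298 bp past the snoRNA 5′ end, beyond the gene, and 84 bp from the 5′ end of the protein-coding gene Y43B11AR.3. C16A3.11, in rps-13, had a signal of 81.7 with the summit 149 bp past its 5′ end, also beyond the gene. Neither summit was in the 100 bp before the snoRNA gene. Of 3 snoRNA genes in 2 translation factor genes, 0 were bound. In the other 107 hosts 21 of 118 intronic loci were bound (17.8%), 18 of them with the summit 1 to 100 bp upstream. These hosts include other genes of translation, such as fars-1, a phenylalanyl-tRNA synthetase gene that holds the bound T08B2.13. The shares of the host groups were not compared by a test. The ribosomal protein hosts held 20 genes with earlier identifiers among their 21. Ranked peaks were present at 16 of these 21 loci in replicate 1 (median signal 28.3) and at 20 in replicate 2 (27.8). Over all 84 intronic loci with earlier identifiers, they were present at 63 in replicate 1 (median 27.8) and 72 in replicate 2 (27.6). Of these 84 loci, which include those in ribosomal protein hosts, 20 were bound (23.8%).

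Box A and box B words stood together upstream of 15 snoRNA genes, and 11 of these were bound (73.3%). The words were looked for from 150 bases before to 20 bases into each gene, on the strand of the gene, with box B starting 20 to 75 bases after box A. They were chosen after bound sequences had been seen, so the counts describe these loci and carry no test. Where the pair was present at bound loci, box B started 42 to 51 bases after box A (median 43.0), and its start lay a median of 12 bases before the snoRNA 5′ end (from 27 to 9). In 9 of the 11 the summit fell between the outer ends of the pair. That stretch is also where snoRNA summits in general lay, with an interquartile range of -56.8 to -2.25 bp over all 70 summits. At tRNA genes with the pair inside the gene, 8 of 16 summits fell between its outer ends. Whether summits follow the pair was not tested. The same search found the pair in 0.0501% of protein-coding windows, in 1.15% of microRNA windows and in 0 of the 612 tRNA windows, whose own words lie further in. Inside tRNA genes box B was found in 95.9%, and the pair, with this spelling of box A, in 15.5%. No annotated tRNA gene overlapped the 150 bases upstream of any snoRNA gene. An annotated pseudogene overlapped them at 1 of the 11 bound loci with the pair, and another non-coding RNA gene at 5.

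The 11 bound loci with box A and box B came from all 4 places: 3 intronic, 5 independent, 2 on the opposite strand and 1 overlapping an exon. Their signals ranged from 84.3 to 170 (median 110). T03F7.8 and W03C9.9, both at 170, were the highest, and ZK484.9 (142) followed. The intronic ones were F55A11.10, with 120 and the summit 17 bp upstream, Y43F8C.22, with 110 and the summit 24 bp upstream, and T08B2.13, with 102 and the summit 55 bp upstream. The F55A11.10 summit also lay 107 bp from the 5′ end of its host F55A11.6, so the peak cannot be told apart from one at that gene. The 4 loci with the pair that were not bound were T24H7.6, C04G6.12, R166.7 and Y59E1B.14, named here after their values were seen. Their highest ranked signals were 36.0 in replicate 1 and 30.2 in replicate 2. The medians of the bound loci with the pair were 52.8 and 60.3. Loci were called bound from these same replicates, so this difference is not independent of the call. T24H7.6, printed above, had 36.0 in replicate 1 and 14.3 in replicate 2.

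A second pair, GGAACC followed by TGTC, stood upstream of 20 other snoRNA genes, of which 12 were bound (60.0%). It is among the recurring letters seen upstream of some bound genes, so its counts too describe these loci and carry no test. Starts 7 to 26 bases apart were allowed, yet TGTC began 13 bases after GGAACC in all 20. At bound loci GGAACC began 79 to 60 bases before the 5′ end (median -63.0). The pair was present in 0.115% of protein-coding windows, 0.163% of tRNA windows and 18.6% of snRNA windows, where 24 of 129 genes had it. Bound loci with this pair had signals from 57.3 to 266 (median 115), and they included F59C6.15, F25H2.15, Y67A10A.14 and Y74C9A.6. By place, 7 of 13 independent, 4 of 4 intronic and 1 of 3 opposite-strand loci with the pair were bound. The summit lay a median of 31.0 bp downstream of the middle of the pair (range -48.0 to 185 bp, the latter at F54F11.6). It fell within the pair at 1 locus, F25H2.15. At Y53F4B.47, smy-2 and smy-3 the summit also lay 166, 214 and 231 bp from a protein-coding 5′ end. Those peaks cannot be told apart from ones at the protein-coding genes. No snoRNA gene had both kinds of pair.

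**Figure D5:**
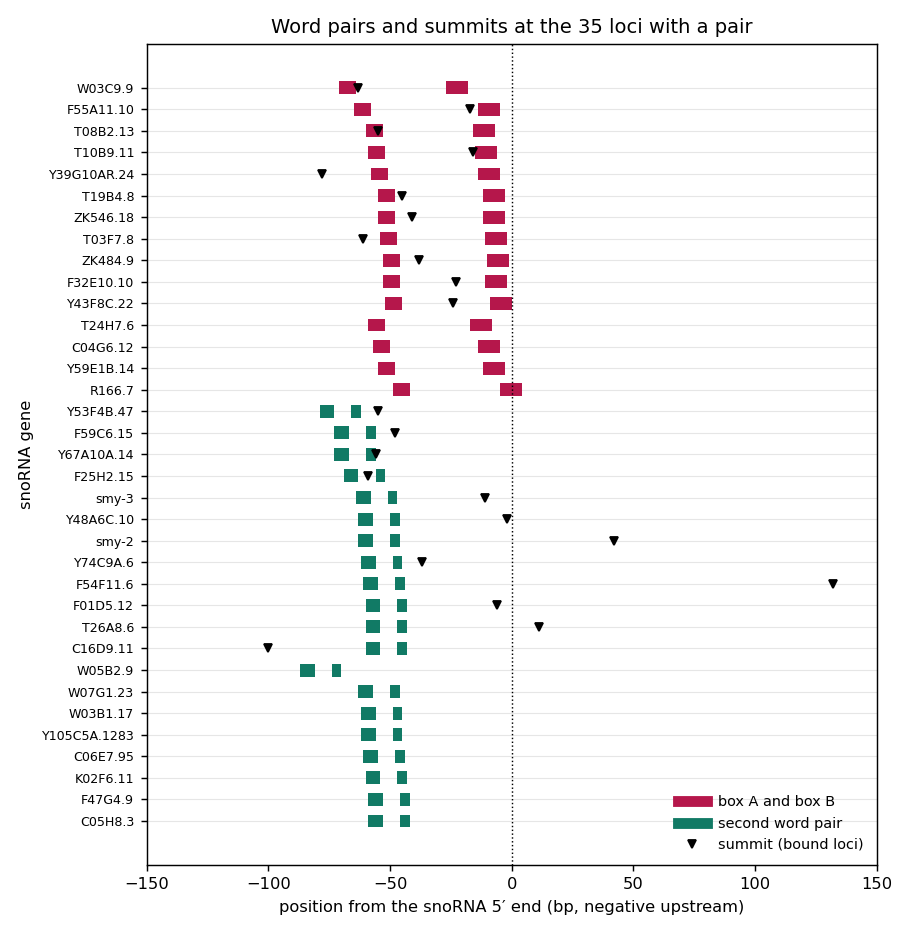
Places of the word pairs (bars) and of the summit (triangles, bound loci) from the snoRNA 5′ end in bp (horizontal, negative upstream) at the 35 loci with a pair, 1 locus per line (vertical); red bars are box A and box B, green bars the second pair. The red pairs stand 42 to 51 bp apart with 9 of 11 triangles between their outer ends, and the green pairs are all 13 bp apart with most triangles to their right.

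The printed sequences of ZK994.7 and WBGene00220185 hold a close variant of the second pair, so a shorter first word, GNAAC, was also looked for exactly 13 bases before TGTC. It was found at 36 snoRNA loci, of which 19 were bound (52.8%), in 30.2% of snRNA windows and in 0.180% of protein-coding windows. The 36 include the 20 loci with GGAACC, of which 12 were bound. The shorter word added ZK994.7, Y37E3.20, Y55F3BR.9 and Y43B11AR.7 among the loci of highest signal. It also added loci that were not bound, such as WBGene00220185, C08D8.3 and T06D8.11. At Y43B11AR.7 the shorter pair began 129 bases before the 5′ end, outside the printed bases, while the summit lay 298 bp past that end. This locus is included in the counts of bound loci with a pair. With any of the 3 pairs 30 of 51 loci were bound (58.8%), and with none of them 39 of 295 (13.2%). The share was higher with a pair in both places: with any pair 10 of 16 intronic (62.5%) and 14 of 24 independent loci (58.3%) were bound, and without one 13 of 126 (10.3%) and 16 of 100 (16%). Pairs were present at 38 of the 139 genes with earlier identifiers and at 13 of the 207 with later ones, so the shares over all loci mix the series. Among earlier identifiers 26 of 38 loci with a pair (68.4%) and 26 of 101 without one (25.7%) were bound. Among later identifiers the counts were 4 of 13 (30.8%) and 13 of 194 (6.70%). Since the shorter word was taken from the sequences of these loci, it too carries no test.

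Base composition moved with binding. The 100 bases upstream of bound genes had a median of 55.0% G and C (interquartile range 51.0 to 58.0), against 42.0% (35 to 49.0) for genes that were not bound. Among intronic genes the medians were 57.0% and 41.0%, and among independent genes 54.0% and 45.0%. The part of base composition in the binding was not tested.

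The letters at the gene ends divided the snoRNA genes further. With ATGA in the first 20 and CTGA in the last 20 bases, 42 genes had C/D-type ends, and 19 of them were bound (45.2%). Of 88 genes with ACA in the last 8 bases and no C/D-type ends, 13 were bound (14.8%), and of the 216 with neither 37 were bound (17.1%). Among earlier identifiers the shares were 46.2%, 16.1% and 56.8%, so the share was highest for genes with neither kind of end there. The C/D-type genes were shorter, with a median of 78.0 bp against 133 bp. Examples are printed in full, with capitals on the letters searched: ZK994.7 and F55A11.10 have C/D-type ends, and Y43F8C.22 ends with ACA and 3 further bases.
ZK994.7 (chrV:8500579-8500645, plus strand): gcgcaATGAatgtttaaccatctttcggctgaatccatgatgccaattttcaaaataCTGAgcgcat
F55A11.10 (chrV:11782992-11783082, plus strand): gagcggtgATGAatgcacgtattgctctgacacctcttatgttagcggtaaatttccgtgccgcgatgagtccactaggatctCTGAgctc
Y43F8C.22 (chrV:19643050-19643187, minus strand): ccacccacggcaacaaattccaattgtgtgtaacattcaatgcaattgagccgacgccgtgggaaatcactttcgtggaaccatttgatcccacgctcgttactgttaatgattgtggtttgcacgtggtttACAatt

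Binding was not all or none at this threshold. The 5 loci that were not bound but had the best mean rank in the replicates were WBGene00220185, F55H12.9, Y53F4B.48, C08D8.3 and F54E7.10. WBGene00220185 had 34.6 in replicate 1 and 36.9 in replicate 2, Y53F4B.48 had 47.6 and 29.2, and C08D8.3 had 49.3 and 29.0. These values lie within the range of the bound loci in each replicate. At C08D8.3 and Y53F4B.48 the summits lay 32 and 39 bp upstream in replicate 1 and 56 and 32 bp upstream in replicate 2, as at bound loci. At WBGene00220185 the summit lay 308 bp past the 5′ end in replicate 1, beyond the gene, and 57 bp upstream in replicate 2. F54E7.10, in rps-12, had 27.8 and 44.6, but its summits lay 208 bp past and 214 bp before the 5′ end in replicates 1 and 2. F55H12.9 had 33.3 and 36.5, with summits 186 and 65 bp past its 5′ end.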

How the data were processed

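ChIP-seq of the tagged Y95B8A.8 protein was deposited as lists of peaks in ce11 coordinates (the build named in the labels), from chromatin sonicated to 200 to 800 bp per the labels. The signal value of each peak (column 7) and its score (column 5), which reflects the irreproducible discovery rate (IDR) ranking, were computed by the authors and used as deposited. Which aligner and peak caller were run is not stated in the sources used here. Read depth is unknown, since the lists hold no read counts, so no interval on a signal is given. The list thresholded over both replicates (1694 peaks, score of at least 830) was the main list. The ranked lists held 46119 peaks for replicate 1 and 44169 for replicate 2, and the thresholded ones 733 and 667.

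Genes came from Ensembl release 115 and sequence from the RefSeq copy of WBcel235, the same assembly as ce11; 345 of the 346 snoRNA genes had the same name and place in RefSeq. Loci were matched to summits with Python 3.11.15, pandas 2.3.3 and numpy 2.4.6. Intervals are Clopper-Pearson, they cover counting over loci alone, and Fisher's exact tests (scipy 1.17.1, two-sided, threshold 0.05) were adjusted over 2 class comparisons. Assignment, tests and word search were checked on simulated data. Named genes were the 15 highest bound loci, the 5 highest of each place, the 5 unbound loci of best mean rank, hosts with at least 2 bound loci, and bound loci in hosts on the ribosomal protein and translation factor lists; other named genes were chosen after their values were seen. Sequences were printed for a choice of chromosomes. The members and lists were chosen with earlier results of these data known. Alternatives changed the window, the list, the summit rule and the definition of intronic, and left out each replicate. The labels call the samples biological replicates without giving the cultures they came from. Whether reads could be placed uniquely at snoRNA genes with near-identical copies was not tested.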

Additional observations from a re-analysis of the deposited data

How the results depend on the processing

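No paired analysis was possible because there is 1 group. The difference between intronic and independent loci kept its direction and did not pass the exact test under 13 alternatives. It lay between -2.94 and -7.08 points with the list of 1 replicate and was -1.86 points with 500 bp windows. The split by identifier was added after the data were seen, so it is no independent check. It gave -41.8 points with earlier identifiers, which passed, and -4.61 points with later ones, which did not. The count of 69 bound loci was 37 to 44 with the list of 1 replicate and 62 to 84 with windows of 100 and 500 bp. The difference from tRNA loci changed sign with 500 bp windows (0.585 points), in the upper 50% of the list by signal (4.95) and with the list of 1 replicate (4.55 to 5.30). The difference from snRNA loci changed sign with 500 bp windows (3.35), the conservative list (0.470), any overlap of the peak (1.04), the upper 50% (2.72), merged windows (0.923) and 1 replicate (0.314 to 0.616). The median summit position was -30.5 bp with the conservative list and -42.5 to -36.5 bp with 1 replicate. With 100 bp windows, 111 loci had a ranked peak in both replicates. The causes were not tested. The lists give no read depth, so loci that were not bound may hold binding below detection.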

Other observations

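The bound snoRNA loci with neither box A and box B nor GGAACC followed by TGTC numbered 46 of 311 (14.8%), and 28 of the 46 had the summit 1 to 100 bp upstream of the gene, with a median position of -30.5 bp. Over all loci, box B, with or without box A, was present at 22 of the 69 bound genes (31.9%) and 18 of the 277 others (6.50%). It was in 10.9% of snRNA windows and 2.51% of protein-coding windows. The word was chosen after bound sequences had been seen, so these counts carry no test. Of the 48 loci with the summit 1 to 100 bp upstream, 20 had box B (41.7%), and of the other 21 bound loci 2 had it (9.52%). Among earlier identifiers box B was present at 21 of 52 bound genes (40.4%) and 11 of 87 others (12.6%). Among later identifiers it was present at 1 of 17 bound genes and 7 of 190 others (3.68%).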
